A study of Drosophila melanogaster with 36 samples.

Results

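The Turandot genes *TotA*, *TotB*, *TotC*, *TotM*, *TotX* and *TotZ* were described in the indirect flight muscle (IFM) of *Drosophila melanogaster*. The members were the rows of the count table whose gene symbol was one of these 6 names, and all 6 were found among 16727 genes. Poly(A) RNA of the IFM, the muscle that powers the wingbeat from within the thorax, was sequenced from 36 libraries, each a pool of 10 female flies aged 3 weeks. WT flies were Canton-S on a regular diet, HFD flies were Canton-S on a diet with 5% coconut oil, and *Sk2* flies carried a mutation of *Sphingosine kinase 2* and ate the regular diet. Each of the 3 models was kept under *ad libitum* feeding (ALF), with food for 24 h, or under time-restricted feeding (TRF), with food for the 12 h of the day and plain agar at night, starting on day 4. All flies lived at 22 °C with 12 h of light a day. In each of the 6 groups 1 library was made at each of Zeitgeber times (ZT, hours after lights on) 3, 7, 11, 15, 19 and 23. The ZT11 library of WT-TRF and the ZT23 library of *Sk2*-ALF, which the study set aside, are left out, and values rest on the other 34 libraries, with n = 5 in WT-TRF and *Sk2*-ALF and n = 6 in the other groups. Libraries of different times stood in as replicates, since no time point of a group had a second library, and time of day is part of the spread within a group, beside differences between pools. The *Sk2* stock was not Canton-S, so that its mutation and its genetic background cannot be told apart.

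Turandot proteins are small secreted proteins that build up in the hemolymph of the fly after infection, heat, oxidative and other stress. The fat body, the fly's counterpart of liver and adipose tissue, is their main known source. *TotA* is the best-studied member: its induction is known to need the JAK/STAT pathway, in which cytokines of the Unpaired family (Upd) bind the receptor Domeless and activate the transcription factor Stat92E. The Imd pathway factor Relish adds to *TotA* induction, and *TotM* is known to be induced through the kinase Mekk1. Turandot proteins are known to shield the fly's own cells by binding exposed phosphatidylserine.

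In the dm6 genome the 5 members on chromosome arm 3R lie within 34.5 kb. *TotA* (3R, 20871036 to 20871700, plus strand) is followed after 1287 bases by *TotC* (20872988 to 20873580), after a further 357 bases by *TotB* (20873938 to 20874522) and after 3213 bases by *TotZ* (20877736 to 20878363), all on the plus strand. *TotX* (20904917 to 20905518, minus strand) starts 26553 bases further on, is a single exon, and lies inside the span of *Grik*, a glutamate receptor gene on the opposite strand. *TotM* is on chromosome arm 2L (5329857 to 5330464, plus strand). The members other than *TotX* have 2 exons each, and exon lengths run from 526 bases in *TotB* to 602 bases in *TotX*. Reads that fit more than 1 family member equally well were not counted. How alike the members are in sequence was not examined, so any effect of this on the split of reads between them is not known.

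Libraries held 3329519 to 30682673 counted reads, and depth differed between groups: WT libraries held 3329519 to 10132861 and *Sk2* libraries 10870706 to 26410549. The flight muscle genes *Act88F* (246 to 9055 CPM), *fln* (73.6 to 838 CPM) and *TpnC4* (455 to 2942 CPM) were detected in all 34 libraries, where CPM is the count per 1000000 reads of the library, after scaling by TMM factors (an edgeR correction of library totals for composition). Summed over 8 muscle genes the level was 14814 to 36386 CPM in WT, 17655 to 31642 CPM in HFD and 9506 to 21422 CPM in *Sk2* libraries. The lower sum in *Sk2* did not hold for every gene. Against WT, 4 of the 8 fell under ALF at edgeR adjusted p under 0.05, beside 22.8% of all tested genes. Under TRF 3 fell and *fln* rose by 0.92 on the log2 scale (adjusted p = 0.014), beside 24.9%. The part of this lower summed level in the *Sk2* comparisons was not tested. Transcripts of other tissues were there too. The fat body lipoprotein gene *Rfabg* stood at 2353 to 16304 CPM and the hemocyte gene *Hml* at 280 to 805 CPM. Of the other fat body genes, *Lsp2*, which encodes a larval serum protein, stood at 14.6 to 977 CPM and *Fbp1*, which encodes the receptor for such proteins, at or near 0 (up to 0.287 CPM). *Apoltp* stood at 332 to 956 CPM, *fon* at 99.1 to 433 CPM and *Lsp1gamma* at 0 to 2.86 CPM. Summed over the 6 of 7 listed fat body genes in the table, levels were 7211 to 13132 CPM in WT, 3489 to 9482 CPM in HFD and 5106 to 17473 CPM in *Sk2* libraries. This sum was mostly *Rfabg*, with a median of 7145 CPM beside 8138 CPM for the sum. In HFD against WT *Rfabg* fell by 0.91 on the log2 scale under ALF and 1.03 under TRF (edgeR adjusted p = 0.0311 and 0.0265). It was the only 1 of 5 tested fat body genes that passed there, beside 16.6% and 10.5% of all tested genes. In *Sk2* against WT 1 of the 5 passed under either regimen, beside 22.8% and 24.9%. This was the scarce *Lsp1gamma*, which rose by 3.40 under ALF and 2.86 under TRF (edgeR adjusted p = 0.000325 and 0.00186). *Rfabg* differed there by -0.085 and -0.0021 (adjusted p = 0.876 and 0.997). Over all 34 libraries, 6 gut genes summed to 136 to 8577 CPM, 7 ovary genes to 0.324 to 368 CPM and 5 neuron genes to 61.6 to 541 CPM. Which cells the Turandot reads came from was not tested, and in such bulk samples more cells of a type and more RNA per cell cannot be told apart. The *Sk2* gene itself stood at 4.94 to 9.76 CPM in WT and at 1.11 to 5.48 CPM in *Sk2* libraries, lower in the mutant with an overlap at the edge of the ranges.

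*TotA* was the most abundant member per kilobase of exon in all 34 libraries, and 4 of the 6 genes carried nearly all Turandot reads. Of the family's counts, 52.5% fell on *TotA*, 28.4% on *TotC*, 13.6% on *TotM* and 5.44% on *TotX*. The median level over libraries was 333 CPM per kilobase for *TotA*, 150 for *TotC*, 51.8 for *TotM* and 36.6 for *TotX*. The order was not fixed: per kilobase *TotM* stood above *TotC* in 4 libraries, of which 3 were HFD-TRF and 1 was HFD-ALF, and *TotX* stood above *TotM* in 7. *TotB* had 0 to 38 reads in a library, at most 1.51 CPM. *TotZ* had 5 reads in all 36 libraries together, never over 1 in a library, and did not pass the filter on low counts, so 5 of the 6 members were tested. A count of 0 allows up to 3 reads, between 0.0978 and 0.901 CPM without TMM scaling over these libraries. Outside these 6, the family genes *TotE* (listed as *Victoria*) and *TotF* had 2 reads each over all 36 libraries together. Together the members took 0.0115% to 0.337% of a library's counts.

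**Figure D1:**
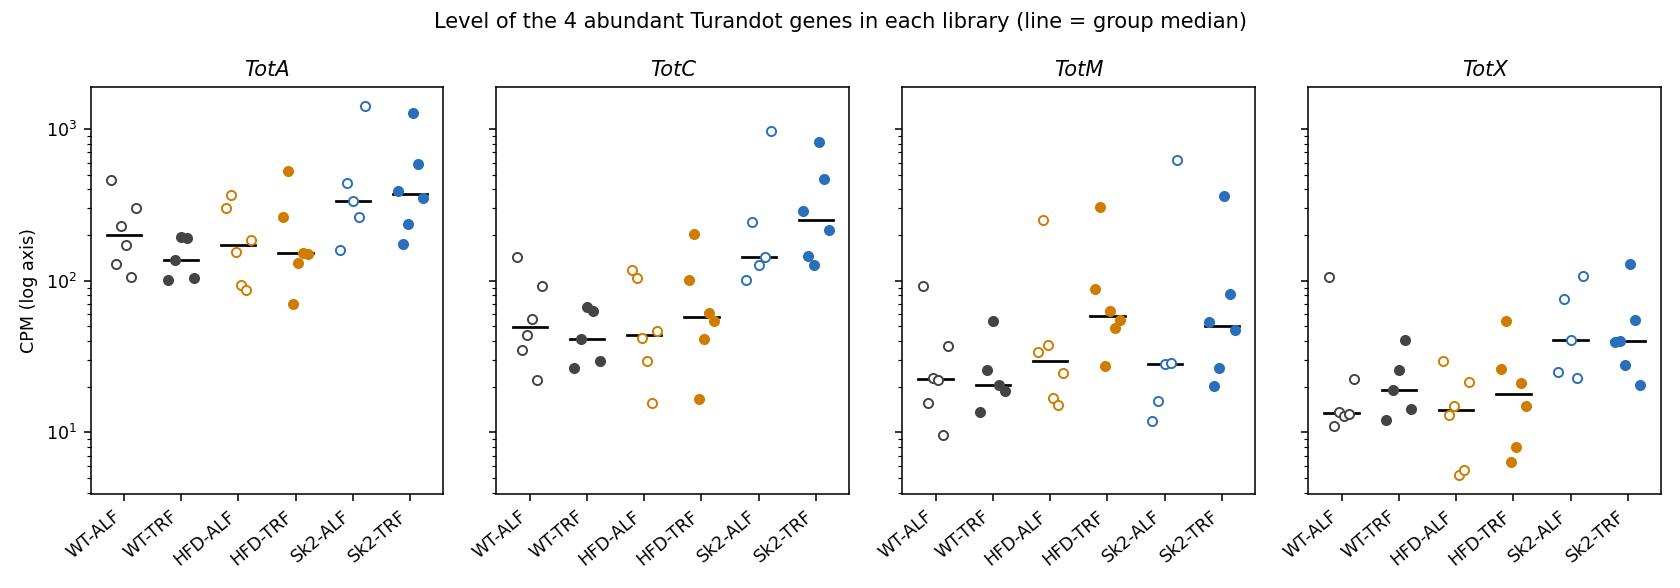
Level of *TotA*, *TotC*, *TotM* and *TotX* in CPM (log axis), 1 point per library and a line at each group's median, with open points for ALF and filled points for TRF. The *Sk2* libraries reach 1422 CPM for *TotA* and 969 CPM for *TotC*, and in *TotC* all *Sk2*-TRF libraries lie above all WT-TRF libraries.

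*TotC* was higher in *Sk2* flies than in WT flies under both regimens, and *TotA* was higher under TRF. *TotC* had a log2 fold change of 2.28 under ALF (SE 0.641, edgeR quasi-likelihood adjusted p = 0.00953) and of 2.93 under TRF (SE 0.690, adjusted p = 0.0022). That is 4.84-fold and 7.60-fold. *TotA* passed under TRF, where it was 3.45-fold higher (log2 fold change 1.79, SE 0.568, adjusted p = 0.0205). Under ALF the *TotA* difference was 1.16 on the log2 scale (SE 0.542, adjusted p = 0.124) and did not pass. Differences between the models reached many genes, and the share of all 9996 tested genes that passed was 22.8% under ALF and 24.9% under TRF, so that 1 of 5 tested members under ALF and 2 of 5 under TRF are no result about the family as a whole. The median log2 fold change of the 5 tested members was 1.32 under ALF and 1.79 under TRF, beside -0.0043 and -0.047 over all tested genes. These medians are the values of *TotB* under ALF, on 0 to 38 reads a library, and of *TotA* under TRF. The abundant members were high in the same libraries, so the 5 values are not separate results.

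The *TotC* values behind this were, in WT-TRF, 26.7 CPM at ZT3, 41 at ZT7, 67.2 at ZT15, 62.7 at ZT19 and 29.6 at ZT23. In *Sk2*-TRF they ran from 127 CPM at ZT11 through a median of 253 to 822 CPM at ZT15. Every *Sk2*-TRF library was thus above every WT-TRF library. Under ALF, *Sk2* flies had 101 CPM at ZT3, 242 at ZT7, 127 at ZT11, 142 at ZT15 and 969 at ZT19, against 22.2 CPM (lowest), 49.7 (median) and 143 (highest) in WT-ALF. The ranges overlapped through a single WT library, ZT3, and the next WT-ALF value, 91.9 CPM at ZT23, was below all *Sk2*-ALF values. At matched times *TotC* was higher in *Sk2* at 4 of 5 times under ALF and at 5 of 5 under TRF.

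*TotA* overlapped more. WT-TRF libraries had 101 CPM at ZT3, 136 at ZT7, 195 at ZT15, 190 at ZT19 and 105 at ZT23, and *Sk2*-TRF libraries ran from 174 CPM at ZT7 through a median of 370 to 1267 CPM at ZT15. Only ZT7 of *Sk2*-TRF lay inside the WT-TRF range. Under ALF, *Sk2* values were 159 CPM at ZT3, 437 at ZT7, 333 at ZT11, 263 at ZT15 and 1422 at ZT19, and WT values ran from 106 through a median of 202 to 461 CPM. Here 4 of the 5 *Sk2*-ALF libraries fell within the WT-ALF range.

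These calls leaned on single libraries. Without *Sk2*-ALF at ZT19 the *TotC* difference under ALF was 1.26 on the log2 scale and no longer passed (edgeR adjusted p = 0.139). Without WT-ALF at ZT3, where all 4 abundant members stood highest in that group, *TotM* (2.73, adjusted p = 0.0487) and *TotX* (1.88, adjusted p = 0.0154) passed as well. The *TotA* call under TRF was lost without WT-TRF at ZT3 (1.70, adjusted p = 0.0514) or without *Sk2*-TRF at ZT15 (1.26, adjusted p = 0.0947). The *TotC* call under TRF held with any library left out, at 2.46 to 3.15.

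For *TotM*, the member on another chromosome, the log2 fold change in *Sk2* against WT was 2.11 under ALF (SE 0.945, adjusted p = 0.109) and 1.88 under TRF (SE 0.977, adjusted p = 0.166), and neither passed. *Sk2*-ALF libraries had 12.0 CPM at ZT3, 16.2 at ZT7, 28.4 at ZT11, 28.8 at ZT15 and 628 at ZT19. A single library thus carried the difference under ALF, and without it the value was -0.60. *TotX* stood at 22.8 to 107 CPM in *Sk2*-ALF and at 11.1 to 105 CPM in WT-ALF, with log2 fold changes of 0.87 under ALF (adjusted p = 0.328) and 1.24 under TRF (adjusted p = 0.160). *TotB* differed by 1.32 under ALF (adjusted p = 0.214) and 1.13 under TRF (adjusted p = 0.286), on 0 to 38 reads a library.

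**Figure D2:**
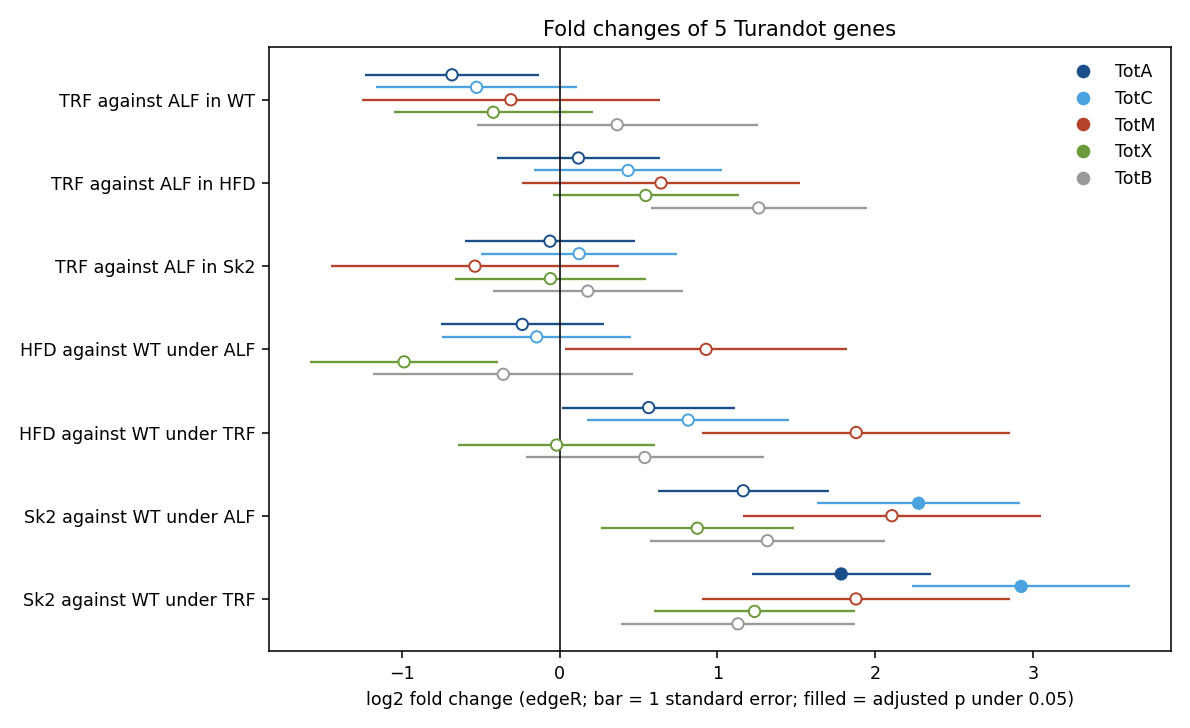
Log2 fold changes of the 5 tested Turandot genes in 7 comparisons (x axis, edgeR), with bars of 1 standard error and filled points where the adjusted p was under 0.05. The 3 filled points are *TotC* in *Sk2* against WT under ALF and under TRF and *TotA* in *Sk2* against WT under TRF.

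The high-fat diet moved no Turandot gene past the test. Between HFD and WT, 16.6% of all tested genes passed under ALF and 10.5% under TRF, and of the 5 tested members none did. At unadjusted p under 0.05 were 3049 and 2400 of all genes and again no member. Under ALF the lowest p was that of *TotX* and under TRF that of *TotM*. *TotM* had a log2 fold change of 0.93 under ALF (SE 0.896, adjusted p = 0.512) and of 1.88 under TRF (SE 0.977, adjusted p = 0.240). *TotM* in WT-TRF was 13.6 CPM at ZT3, 25.8 at ZT7, 53.9 at ZT15, 20.6 at ZT19 and 18.7 at ZT23, while HFD-TRF ran from 27.6 CPM at ZT11 through a median of 58.9 to 307 CPM at ZT7. At matched times HFD-TRF was higher at 5 of 5, although the ranges overlapped. *TotA* differed by -0.24 under ALF and 0.57 under TRF, and *TotC* by -0.14 and 0.82. *TotX* was 5.22 to 29.5 CPM in HFD-ALF, a difference of -0.98 from WT-ALF (SE 0.598, adjusted p = 0.272) that was 0.025 without WT-ALF at ZT3. The comparisons of HFD and of *Sk2* with WT share the WT libraries.

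Feeding regimen changed no Turandot gene past the test in any model. In WT flies 0% of all genes passed by edgeR after adjustment (774 had an unadjusted p below 0.05, and 1 gene passed with DESeq2). In HFD flies 0.0600% passed and in *Sk2* flies 0.0800%. The study's own threshold, a change of at least 0.32 on the log2 scale with an unadjusted p of 0.05 or less, was applied here to edgeR p-values. With it 5.96% of genes passed in WT, 11.3% in HFD and 6.73% in *Sk2* flies, and no Turandot gene was among them. The study applied it to DESeq2 p-values, so these shares are not its own gene counts. In WT flies *TotA* was -0.68 on the log2 scale under TRF relative to ALF (SE 0.549, adjusted p = 0.794) and *TotC* was -0.53 (SE 0.638, adjusted p = 0.870). In HFD flies *TotM* was 0.64 (SE 0.881, adjusted p = 0.810) and *TotB* 1.26 (SE 0.685, adjusted p = 0.420). In *Sk2* flies *TotA* was -0.061 (SE 0.540, adjusted p = 0.983) and *TotC* 0.12 (SE 0.623, adjusted p = 0.969). Over the 3 models the standard errors of the 4 abundant members ran from 0.516 to 0.947 on the log2 scale. The regimen effect was also compared between models. In HFD against WT 0% of genes passed this interaction test (798 had an unadjusted p below 0.05, and 3 passed with DESeq2) and in *Sk2* against WT 0.0100% did, with no Turandot gene among them. For *TotA* the interaction was 0.80 (SE 0.752, adjusted p = 0.872) in HFD and 0.62 (SE 0.769, adjusted p = 0.903) in *Sk2* flies.

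Time of day gave no common pattern. Over all groups 2.31% of genes passed a test of time and 0.500% a test of the dark against the light phase, and none of the 5 tested members did. The adjusted p for time was 0.836 for *TotA*, 0.640 for *TotC*, 0.675 for *TotM* and 0.717 for *TotX*. The dark to light difference of *TotA* was 0.13 on the log2 scale (SE 0.334, adjusted p = 0.9999). The hour of the highest *TotA* library differed between groups, at ZT3 in WT-ALF, ZT15 in WT-TRF, ZT7 in both HFD groups, ZT19 in *Sk2*-ALF and ZT15 in *Sk2*-TRF. *TotM* peaked in the same 6 libraries. With 1 library a point, a peak in time and a pool with a high level cannot be told apart.

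**Figure D3:**
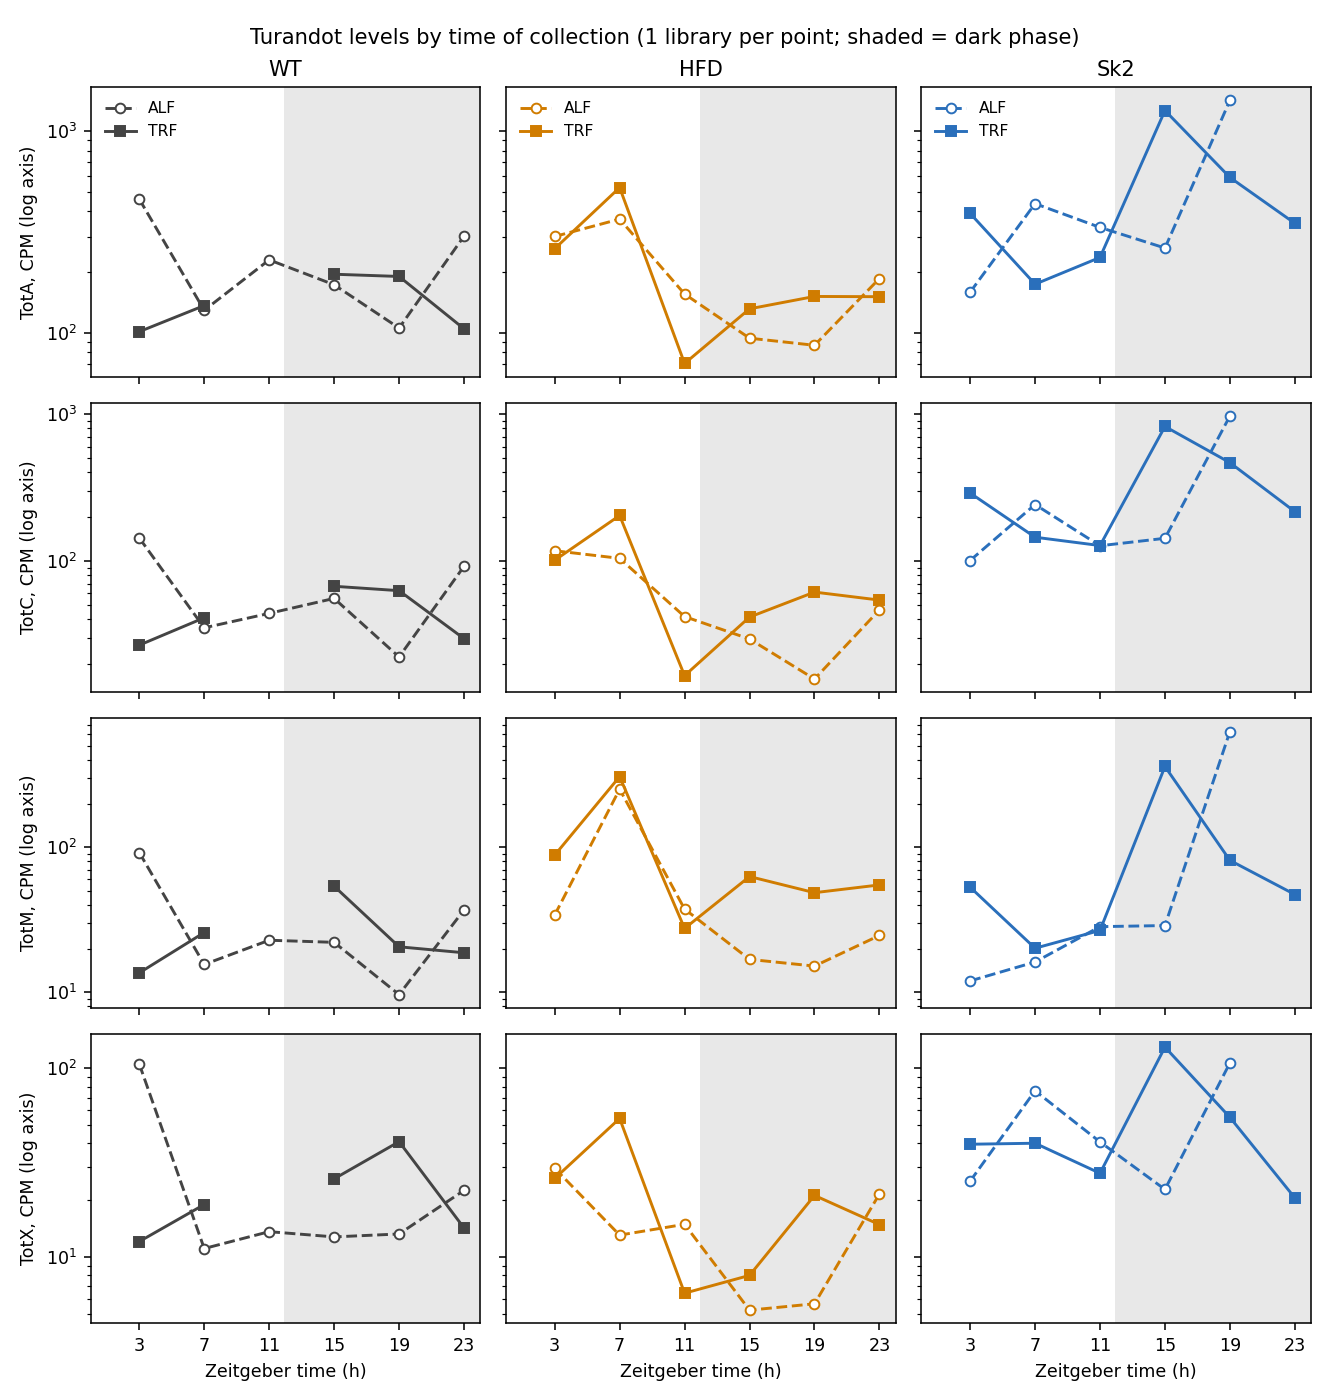
*TotA*, *TotC*, *TotM* and *TotX* in CPM (log axis) against Zeitgeber time in hours, by model, with dashed lines for ALF, solid lines for TRF, gaps where a library was not used and the dark phase shaded. *TotM* is highest at ZT7 in both HFD groups (252 and 307 CPM), at ZT19 in *Sk2*-ALF (628 CPM) and at ZT15 in *Sk2*-TRF (361 CPM).

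The 4 abundant members were high in the same libraries. In *Sk2*-ALF at ZT19, *TotA* was 1422, *TotC* 969, *TotM* 628 and *TotX* 107 CPM. In *Sk2*-TRF at ZT15 they were 1267, 822, 361 and 130 CPM. In HFD-TRF at ZT7 they were 525, 204, 307 and 54.3 CPM. WT-ALF at ZT3 had 461, 143, 92.0 and 105 CPM, and each of these 4 values was the highest of the 11 WT libraries used. HFD-ALF at ZT7 was an uneven case, with *TotM* at 252 and *TotX* at 13.1 CPM. In these 5 libraries the summed fat body genes, mostly *Rfabg*, stood at 5360 to 13132 CPM and the summed hemocyte genes at 710 to 1345 CPM. Both were within or at the ends of the ranges over all 34 libraries (3489 to 17473 and 710 to 1368 CPM). Their summed muscle genes were at 10927 to 30439 CPM. WT-ALF at ZT3 had the highest fat body sum (13132 CPM) and the lowest muscle sum (14814 CPM) of the 11 WT libraries, whereas *Sk2*-ALF at ZT19 had fat body genes at 5658 CPM, near the low end of its group (5106 to 17473 CPM). The gut genes were at their group's highest sum in *Sk2*-ALF at ZT19 (3768 CPM) and HFD-ALF at ZT7 (6822 CPM), and stood at 4119 CPM in WT-ALF at ZT3, 372 CPM in HFD-TRF at ZT7 and 369 CPM in *Sk2*-TRF at ZT15. The neuron genes summed to 119 to 166 CPM in these 5 libraries. The part of cell makeup in the high libraries was not tested.

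Of all genes with a mean of 50 or more counts, the ones most like *TotA* were other Turandot genes. Likeness was Pearson's r of log2 CPM, centred within the 6 groups, over 34 libraries that share the depth and scaling of each library, among 8040 other genes. *TotC* ranked first (r = 0.968), *TotM*, on another chromosome arm, came next (r = 0.907), followed by *TotX* (r = 0.836), *CG33460* (r = 0.717) and *CG6357* (r = 0.707). Without the 2 libraries highest in *TotA* the first 4 places were held by the same genes in the same order, with r of 0.959, 0.868, 0.809 and 0.796. *TotM* and *TotX* were less alike (r = 0.653). *Diedel*, a secreted immune factor singled out here after its values had been seen, came after *TotA* and *TotC* in likeness to *TotM* (r = 0.806). It stood at 49.5 CPM in *Sk2*-ALF at ZT19. The other *Sk2*-ALF libraries, at 0.179 to 0.856 CPM, lay within the WT-ALF range of 0.179 to 1.19 CPM. *Sk2*-TRF had 11.4 CPM of *Diedel* at ZT15, 14.5 at ZT19 and 0.896 to 1.35 in its other libraries. HFD-TRF at ZT7 had 7.76 CPM, and the highest WT library 2.63 CPM. *Diedel* differed between *Sk2* and WT by 3.54 on the log2 scale under ALF (edgeR adjusted p = 0.0242) and 1.64 under TRF (adjusted p = 0.303).

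The proportions of the members differed between models. The ratio of *TotC* to *TotA* counts within a library does not depend on scaling. It was 0.191 to 0.321 in WT-ALF and 0.264 to 0.344 in WT-TRF, and 0.380 to 0.681 in *Sk2*-ALF and 0.538 to 0.832 in *Sk2*-TRF. All 11 *Sk2* libraries were above all 11 WT libraries, including those where *TotA* itself was within the WT range. The ratio was 2.08-fold higher in *Sk2* under ALF and 2.27-fold higher under TRF (two-sided exact permutation p = 0.00433 each, the smallest that 5 against 6 libraries can give, and 0.0173 after Benjamini-Hochberg adjustment over 12 ratio comparisons). In HFD flies the ratio was 0.181 to 0.405, and it differed from WT by a factor of 1.04 under ALF (exact p = 0.779) and 1.13 under TRF (exact p = 0.255). These ratios were chosen after the values had been seen. Sequence differences between the *Sk2* stock and Canton-S at these paralogs, which could change how many reads align to each, were not tested.

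The ratio of *TotM* to *TotA* set HFD-TRF apart from WT-TRF. It was 0.134 at ZT3, 0.189 at ZT7, 0.276 at ZT15, 0.108 at ZT19 and 0.179 at ZT23 in WT-TRF, and 0.321 (lowest), 0.378 (median) and 0.585 (highest) in HFD-TRF. No HFD-TRF library fell into the WT-TRF range, and the ratio was 2.39-fold higher (two-sided exact permutation p = 0.00433, adjusted p = 0.0173 over the 12 comparisons). Under ALF it was 1.68-fold higher in HFD than in WT and did not pass (exact p = 0.0736, adjusted p = 0.177), with 0.113 to 0.686 in HFD-ALF against 0.0913 to 0.200 in WT-ALF. In *Sk2* flies the fold was 0.838 under ALF (exact p = 0.671) and 0.862 under TRF (exact p = 0.485). The ratio ran from 0.037 to 0.442 in *Sk2*-ALF and from 0.113 to 0.285 in *Sk2*-TRF. The HFD-ALF and *Sk2*-ALF ranges thus overlapped that of HFD-TRF, which was tested against WT-TRF only. The ratio of *TotX* to *TotA* passed in none of its 4 comparisons, the lowest adjusted p being 0.0649 for HFD against WT under TRF.

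**Figure D4:**
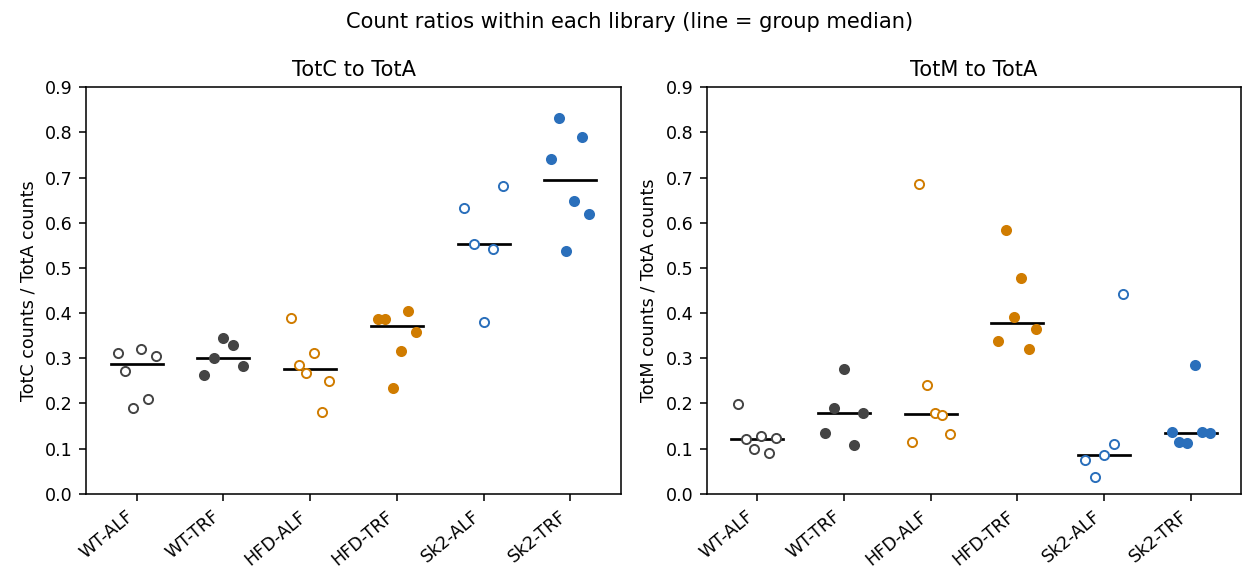
Ratio of *TotC* to *TotA* counts (left) and of *TotM* to *TotA* counts (right) in each library (y axis, from 0), with a line at the group median, open points for ALF and filled points for TRF. The *TotC* ratio is 0.380 or more in every *Sk2* library and 0.344 or less in every WT library. The *TotM* ratio is 0.321 or more in every HFD-TRF library and 0.276 or less in every WT-TRF library.

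The JAK/STAT genes *Socs36E*, *dome* and *upd2* rose in HFD flies under both regimens. *Socs36E*, a feedback inhibitor and standard target of the pathway, was higher in HFD than in WT by 2.77 on the log2 scale under ALF (SE 0.309, edgeR adjusted p = 1.08e-06) and by 2.40 under TRF (SE 0.326, adjusted p = 2.19e-05). It stood at 53.7 to 199 CPM in HFD-ALF and 33.8 to 192 CPM in HFD-TRF, above all WT libraries (11.4 to 22.9 CPM). *Sk2* libraries, where *TotA* and *TotC* were highest, had *Socs36E* at 10.3 to 24.7 CPM, with differences from WT of 0.15 under ALF (adjusted p = 0.771) and -0.41 under TRF (adjusted p = 0.357). The receptor gene *dome* rose in HFD by 1.21 under ALF (adjusted p = 0.000262) and 1.27 under TRF (adjusted p = 0.000267). In HFD against WT under ALF 4 of 5 neuron genes rose too, with a list median of 1.51 (*nSyb* 1.57, adjusted p = 0.011), and under TRF none passed and the median was 0.047. Their part in the ALF differences was not tested. The ligand gene *upd2* rose by 3.05 (adjusted p = 0.0211) and 4.12 (adjusted p = 0.0062), from a level of 0 to 0.574 CPM in WT, on 0 to 4 reads a library. *upd3*, the ligand known to be released by hemocytes on infection, was at 0.397 to 1.18 CPM in *Sk2*-TRF and at 1.44 to 9.79 CPM in WT-TRF, a fall by 2.40 (adjusted p = 0.00971). In the 2 HFD libraries of ZT7, *upd3* (16.8 CPM under ALF and 37.5 under TRF) and *Socs36E* (199 and 192 CPM) were each at their group's highest level, as were *TotA* and *TotM*. This did not extend to HFD-TRF at ZT3, which came next in its group for all 4 abundant members (*TotA* at 261 CPM). That library had the group's lowest *upd3* (1.92 CPM) and lowest *Socs36E* (33.8 CPM). In the high libraries of the other models *upd3* was at its group's lowest level, on few reads. It stood at 1.22 CPM (7 reads) in WT-ALF at ZT3. In *Sk2* flies it stood at 0.598 CPM (7 reads) under ALF at ZT19 and at 0.397 CPM (10 reads) under TRF at ZT15. *Socs36E* stood at 12.2, 17.1 and 15.5 CPM in these libraries in turn. WT-ALF at ZT7 also had 7 reads of *upd3*, so the lowest place in that group is not settled. The part of JAK/STAT signalling in the Turandot levels was not tested.

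Of the 5 listed ligand and receptor genes 4 were tested. In HFD 2 rose and none fell under either regimen, and in *Sk2* 1 rose under ALF (*et*, a short receptor of the Domeless type, by 0.85, adjusted p = 0.0140) and 1 fell under TRF. Beside these, under ALF and TRF in turn, stand 16.6% and 10.5% of all tested genes in HFD flies and 22.8% and 24.9% in *Sk2* flies, so that 1 of 4 in *Sk2* is near the background. Of the 7 genes for the kinase, the transcription factor and the pathway's brakes, 1 rose and 1 fell in HFD under ALF, the latter *Stat92E* (-0.53, adjusted p = 0.0169), and 2 rose under TRF, the second being *Socs44A* (0.92, adjusted p = 0.00524). In *Sk2* flies *apt*, a transcription factor gene that limits STAT signalling in the ovary, fell by 0.41 under ALF (adjusted p = 0.0187) and by 0.50 under TRF (adjusted p = 0.00386), and the phosphatase gene *Ptp61F* rose by 0.47 under TRF (adjusted p = 0.00177). *Stat92E* differed from WT by -0.28 and -0.27 in *Sk2* (adjusted p = 0.222 and 0.227). Over the 4 tested ligand and receptor genes the median log2 fold change, under ALF and TRF in turn, was 1.05 and 1.37 in HFD flies and -0.088 and -0.43 in *Sk2* flies. Over the other 7 genes it was 0.051 and 0.105 in HFD and -0.057 and -0.27 in *Sk2*. Over all tested genes these medians were -0.063, -0.019, -0.0043 and -0.047.

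**Figure D5:**
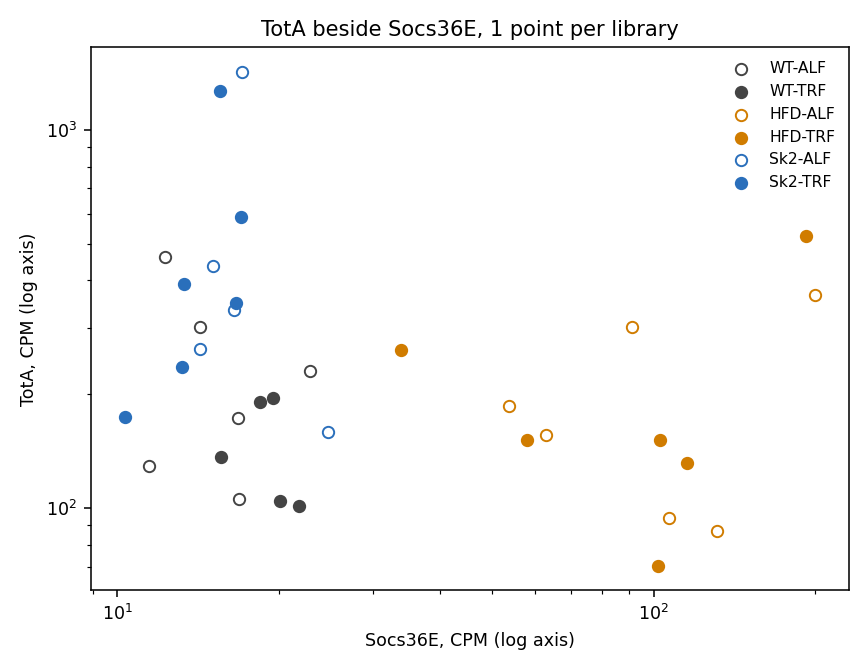
*TotA* against *Socs36E*, both in CPM on log axes, with 1 point for each of the 34 libraries, open for ALF and filled for TRF. HFD libraries lie to the right, at 33.8 CPM of *Socs36E* or more, and the 2 highest *TotA* values, 1422 and 1267 CPM, are *Sk2* libraries at 17.1 and 15.5 CPM of *Socs36E*.

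The Imd, Mekk1 and p38, and JNK pathways are stress pathways of the fly, and their listed genes are given next. The share of all tested genes that passed, in either direction, was 16.6% under ALF and 10.5% under TRF in HFD, and 22.8% under ALF and 24.9% under TRF in *Sk2*, and many of the counts below are near it. Of 8 Imd pathway genes, 2 rose and 1 fell in HFD under ALF, 3 rose under TRF, 2 rose and 3 fell in *Sk2* under ALF, and 1 rose and 1 fell under TRF, the last being 2 of 8 beside 24.9% of all genes. *pirk*, a target and brake of the pathway, rose in all 4 comparisons, by 1.66 and 2.18 in HFD (adjusted p = 0.000566 and 8.08e-05) and by 1.80 and 1.64 in *Sk2* (adjusted p = 6.94e-05 and 0.000337). *Rel*, which encodes Relish, rose in HFD by 1.03 under ALF (adjusted p = 0.02) and 1.51 under TRF (adjusted p = 0.00331). The adaptor gene *Fadd* and the kinase gene *ird5* fell in *Sk2* under ALF, by 0.86 (adjusted p = 0.00079) and 0.55 (adjusted p = 0.00322), and *Fadd* fell under TRF by 1.16 (adjusted p = 1.53e-05). The list's median, under ALF and TRF in turn, was 0.11 and 0.39 in HFD and -0.31 and -0.24 in *Sk2*.

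Of 8 genes of the Mekk1 and p38 cascade, none passed in HFD under ALF and 1 rose under TRF, the p38 kinase gene *p38c* (2.496, adjusted p = 0.000527). In *Sk2*, 1 rose and 1 fell under either regimen. The kinase gene *Ask1* (listed as *Pk92B*) rose by 0.23 under ALF (adjusted p = 0.0249) and 0.47 under TRF (adjusted p = 2.65e-05), and the transcription factor gene *Atf-2* fell by 0.46 (adjusted p = 0.0228) and 0.40 (adjusted p = 0.0404). Of 8 JNK cascade genes, 1 rose in HFD under ALF and 3 under TRF, and in *Sk2* 1 rose and 1 fell under ALF and 1 rose and 2 fell under TRF. Of these, 1 of 8 in HFD under ALF stands beside 16.6% of all genes and 2 of 8 in *Sk2* under ALF beside 22.8%. The kinase gene *hep* rose in all 4 comparisons, by 0.28 to 0.34 on the log2 scale, and the kinase gene *Tak1*, which also serves the Imd pathway, fell in *Sk2* by 1.18 under ALF (adjusted p = 0.000394) and 1.53 under TRF (adjusted p = 1.06e-05). *Jra*, which encodes Jun, rose in HFD under TRF by 0.85 (adjusted p = 0.0164). The test of time of day was passed by 3 JNK genes, *Tak1* (adjusted p = 0.00648), *kay*, which encodes Fos (adjusted p = 0.0239), and *Jra* (adjusted p = 0.0361). Medians lay between -0.13 and 0.135 for the Mekk1 and p38 list and between -0.19 and 0.23 for the JNK list over the 4 comparisons.

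Among 5 other secreted stress factors, 1 rose in HFD under ALF and 3 under TRF, 2 rose in *Sk2* under ALF, and 1 rose and 1 fell under TRF, beside 16.6%, 10.5%, 22.8% and 24.9% of all tested genes. The thioester protein gene *Tep2* stood at 437 to 809 CPM in HFD-TRF and at 215 to 318 CPM in WT-TRF, with no overlap (1.255, adjusted p = 0.000205), and it rose in *Sk2* by 0.82 under ALF (adjusted p = 0.00278) and 0.66 under TRF (adjusted p = 0.0161). The other gene that rose in *Sk2* under ALF was *Diedel* (3.54, adjusted p = 0.0242). *Tep1* and *Tep4* rose in HFD under TRF by 2.71 (adjusted p = 0.0241) and 0.93 (adjusted p = 0.0153). The virus-induced gene *vir-1* rose in HFD under ALF by 0.78 (adjusted p = 0.000603) and fell in *Sk2* under TRF by 0.84 (adjusted p = 9.07e-05). The median of these 5 genes, under ALF and TRF in turn, was 0.57 and 0.93 in HFD flies and 0.64 and 0.66 in *Sk2* flies.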

How the data were processed

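Poly(A) RNA-seq of IFM was analysed from the deposited table of raw read counts, which the authors made from 50-base reads by aligning to dm6 with STAR (2.5.3a per the processing notes), keeping uniquely aligned reads, and counting exons with featureCounts 1.5.0-p1 on the reverse strand. Genes of low count were removed (filterByExpr in edgeR 4.0.16, R 4.3.3), libraries were scaled by TMM, and 9996 genes were fitted by the edgeR quasi-likelihood test with 6 group means over 34 libraries, with Benjamini-Hochberg adjustment. The 2 libraries the study excluded were left out. Time and dark against light phase were fitted with group as a term. The exact permutation test used log2 ratios of counts. Alternatives were all 36 libraries, time point as a block, no filter, RLE size factors, DESeq2 1.42.0 and each library left out. In counts simulated for *Sk2* against WT under ALF (9916 genes), 93 of 100 genes changed 4-fold and 70 of 99 changed 2-fold were called. These rates are over genes in general and do not carry over to the Turandot genes. In this comparison *TotC* at 4.84-fold was called, and *TotM* at 4.31-fold, *TotB* at 2.49-fold and *TotA* at 2.24-fold were not. Standard errors of these 4 genes were 0.542 to 0.945 on the log2 scale. The members, gene lists and tests were chosen with earlier results of these data known. All 6 members were named, with up to 4 called genes a list by smallest p, *Stat92E*, *Socs36E*, *upd3*, the other Turandot genes and the 5 genes most like *TotA*. *Diedel* was added after its values had been seen. Of 89 listed genes 88 were matched, 7 by an older symbol. Library totals give the precision of counts, and floors cover counting error only. Where nothing says that pools were separate cultures, p-values measure only the spread between these libraries.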

Additional observations from a re-analysis of the deposited data

Results flagged for a closer look

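Outlying libraries were looked for with Dixon's ratio of the gap to the range on log2 CPM, for 5 members in 6 groups. Of these 30 combinations 3 exceeded the 95% critical value, and chance flags about 1 in 20. *TotM* at ZT7 in HFD-ALF, 252 CPM, stood far above the next library of its group at 37.5 CPM. *TotM* at ZT19 in *Sk2*-ALF, 628 CPM, stood above the next at 28.8 CPM. *TotX* at ZT3 in WT-ALF, 105 CPM, stood above the next at 22.5 CPM.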

How the results depend on the processing

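No number of called Turandot genes moved under all 36 libraries, time point as a block, no filter, RLE size factors or DESeq2 (68 values over 14 comparisons and thresholds, the block having no fit beside the tests of time and of phase). With 1 library left out, 7 of 476 such numbers moved. The count of called members in *Sk2* against WT ran from 0 to 3 under ALF (0 without *Sk2*-ALF ZT19, 3 without WT-ALF ZT3) and from 1 to 2 under TRF. At the study's threshold the count for TRF against ALF ran from 0 to 1 in HFD (1 without HFD-ALF ZT7 or HFD-TRF ZT19) and from 0 to 1 in *Sk2* flies (1 without *Sk2*-ALF ZT19). Replicate numbers were not given by the labels and no time point is known to be a shared batch, so time point was only a shared hour. Blocking by it changed no member's call.

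Signs turned only where a difference had not passed the test, the cause of which was not tested. With all 36 libraries the TRF effect in *Sk2* became 0.14 for *TotA* and 0.13 for *TotX* (0.029 with the block), HFD against WT under TRF became 0.099 for *TotX* (0.0014 with no filter), and the difference in TRF effect between *Sk2* and WT became 0.15 for *TotB* and 0.050 for *TotM* (0.56 with the block).

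With 1 library left out, log2 values had these ranges. For TRF in WT they were -0.087 to 0.87 for *TotB*, -0.75 to 0.31 for *TotM* and -0.72 to 0.59 for *TotX*. For TRF in HFD they were -0.37 to 0.39 for *TotA*, -0.10 to 0.75 for *TotC* and -0.16 to 1.94 for *TotM*. For TRF in *Sk2* they were -0.61 to 0.78 for *TotA*, -0.026 to 0.72 for *TotB*, -0.36 to 1.203 for *TotC*, -1.66 to 2.23 for *TotM* and -0.59 to 0.37 for *TotX*. For HFD against WT under ALF they were -0.50 to 0.076 for *TotA*, -0.58 to 0.20 for *TotB*, -0.46 to 0.25 for *TotC*, -0.37 to 1.55 for *TotM* and -1.30 to 0.025 for *TotX*. *TotX* ran from -0.53 to 0.31 in HFD against WT under TRF, and *TotM* from -0.60 to 2.73 in *Sk2* against WT under ALF. For the difference in TRF effect they were -0.044 to 1.28 for *TotX* in HFD, and -0.68 to 0.33 for *TotB*, -1.36 to 2.53 for *TotM* and -0.65 to 0.78 for *TotX* in *Sk2*. For dark against light they were -0.16 to 0.28 for *TotA*, -0.099 to 0.43 for *TotC*, -0.36 to 0.62 for *TotM* and -0.42 to 0.11 for *TotX*. The log2 difference of the *TotC* to *TotA* ratio in HFD against WT under ALF ran from -0.045 to 0.18, and that of the *TotM* to *TotA* ratio in *Sk2* against WT under ALF from -0.78 to 0.11. The 3 ratio differences that passed kept their call with all 36 libraries and with any library left out, at 0.96 to 1.19 and 1.13 to 1.254 for *TotC* in *Sk2* and 1.10 to 1.44 for *TotM* in HFD-TRF, settings chosen after seeing the data.

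Counts over all genes moved by more than 1.5 times in places. For TRF in HFD, 6 genes became 0 with all 36 libraries and 48 with DESeq2, and for TRF in *Sk2*, 8 became 1 with all 36, 0 with the block and 24 with DESeq2. For TRF in WT, 0 became 1 with DESeq2. The difference in TRF effect went from 0 to 3 with DESeq2 in HFD, and in *Sk2* from 1 to 188 with all 36 libraries, 0 with the block or no filter and 8 with DESeq2. The time test went from 231 to 36 (all 36 libraries), 148 (no filter) and 705 (DESeq2), the dark against light test from 50 to 23 (all 36) and 123 (DESeq2), and the study's threshold in WT from 596 to 1303 (all 36). *TotB* and *TotZ* are limited by depth, with at most 38 reads in a library.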
